A study of Mus musculus with 4 samples.

Results

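PD-1 and its ligands were described across the classes of CD45-positive cells that were sorted from MC38 tumors, a transplanted mouse colon carcinoma. The members were chosen by name: Pdcd1, which encodes the receptor PD-1, and Cd274 and Pdcd1lg2, which encode the ligands PD-L1 and PD-L2. They are 3 of the 19059 genes counted in 4 single-cell libraries. The host mice (B-hCTLA-4, on C57BL/6) carried human CTLA-4, and in every group the tumors of 11 mice were pooled into 1 library. By the sample records, treatment started at a tumor size of about 100 mm3, 3 treatments were given and cells were taken on day 8. The isotype control group received human IgG1 at 10 mg/kg. The combination group received ipilimumab, a human IgG1 antibody to human CTLA-4, at 10 mg/kg together with AT130-2 mIgG1-N297A, an antibody to mouse FcγRII whose Fc part is mutated, at 20 mg/kg. The other 2 libraries are those of the single antibodies. In the records of both, the title and the stated treatment give different antibodies, so they are called here the library titled anti-human CTLA-4 and the library titled anti-mouse FcγRII, and no direction is drawn from which antibody either received. The article describes other doses, start sizes, harvest days and tumor numbers than the sample records do.

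PD-1 is an inhibitory receptor that T cells acquire on activation, and that stays high where antigen persists, as in tumors. On binding a ligand its cytoplasmic tail recruits the phosphatases SHP-2 (Ptpn11) and SHP-1 (Ptpn6), which dampen signals from the T cell receptor and from CD28. PD-L1 is found on many blood-derived and other cells and is induced by interferon-γ, partly through the transcription factor IRF1, whereas PD-L2 is largely restricted to dendritic cells, macrophages and related cells.

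The libraries held 129151823 to 196362818 unique molecular identifiers (UMIs, each standing for a captured probe pair) and the median cell held 14836 to 19115 UMIs. Ptprc, which encodes CD45, had a UMI in 96.0% to 97.6% of the cells kept. No cell barcode was shared by libraries in full, whereas 4461 of 23366 droplet barcodes without the probe barcode occurred in at least 2 libraries. Cells were placed in classes by marker genes. A level is what a gene contributed to 1000000 UMIs when a whole class was added up (CPM). With 1 library per group no test between groups was possible, and a group cannot be told apart from its library. Intervals in parentheses are exact 95% intervals (Poisson for a level, conditional binomial for a ratio, Clopper-Pearson for a share). They cover counting error only, and not the spread between cells or mice. Since the assay counts probes, and the number of probes differs by gene, levels were compared within a gene and not between genes.

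In the GENCODE annotation of GRCm38, Pdcd1 lies on the minus strand of chromosome 1 (chr1:94038305-94052553, 5 exons). Cd274 (chr19:29367455-29388095, 7 exons) and Pdcd1lg2 (chr19:29410919-29471161, up to 6 exons) lie on the plus strand of chromosome 19 in the same orientation, with 22823 bases between the end of the first and the start of the second. The 250 bases before the RefSeq start of each gene (build GRCm38.p6, written in the direction of transcription) are shown because the ligands moved together in macrophages while the receptor moved in other cells. Capitals mark GGAAA, the core of sites of NFAT, on either strand.
Pdcd1, chr1:94052554-94052803, minus strand: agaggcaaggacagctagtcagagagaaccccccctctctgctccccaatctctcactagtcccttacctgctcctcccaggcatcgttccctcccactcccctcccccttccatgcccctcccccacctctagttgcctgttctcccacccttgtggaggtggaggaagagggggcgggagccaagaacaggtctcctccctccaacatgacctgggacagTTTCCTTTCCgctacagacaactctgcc
Cd274, chr19:29367188-29367437, plus strand: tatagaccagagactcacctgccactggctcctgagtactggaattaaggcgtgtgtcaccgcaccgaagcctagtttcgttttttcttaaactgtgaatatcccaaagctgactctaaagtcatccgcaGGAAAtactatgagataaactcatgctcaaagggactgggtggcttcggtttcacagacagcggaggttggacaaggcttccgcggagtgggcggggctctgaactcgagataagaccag
Pdcd1lg2, chr19:29410669-29410918, plus strand: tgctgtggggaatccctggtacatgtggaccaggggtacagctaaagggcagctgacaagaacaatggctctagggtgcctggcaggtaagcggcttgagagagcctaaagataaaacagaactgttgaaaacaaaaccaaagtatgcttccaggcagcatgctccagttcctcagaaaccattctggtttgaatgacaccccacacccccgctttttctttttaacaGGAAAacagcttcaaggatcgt
Pdcd1 held a pair of adjacent matches within the 28 bases before its start, both on the other strand, and each ligand held 1 match. GGAAA is common, and occurred in 55.6% of the 32851 upstream stretches of this length. The letters of paired interferon-factor cores (GAAA and GAAA with 2 bases between them, in 2.98% of stretches, which can overlap GGAAA) and of AP-1 sites (TGANTCA, in 6.75%) were not in any of the 3 windows, searched on both strands.

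Pdcd1 was highest in CD8 T cells in every library, at 956 CPM in isotype control and 1083 to 1159 CPM in the others. In NK cells and ILC1, and in CD4 T cells without Foxp3, the combination exceeded isotype control several times over. In migratory dendritic cells it was lower. The plot of levels by class shows all 3 genes.

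**Figure D1:**
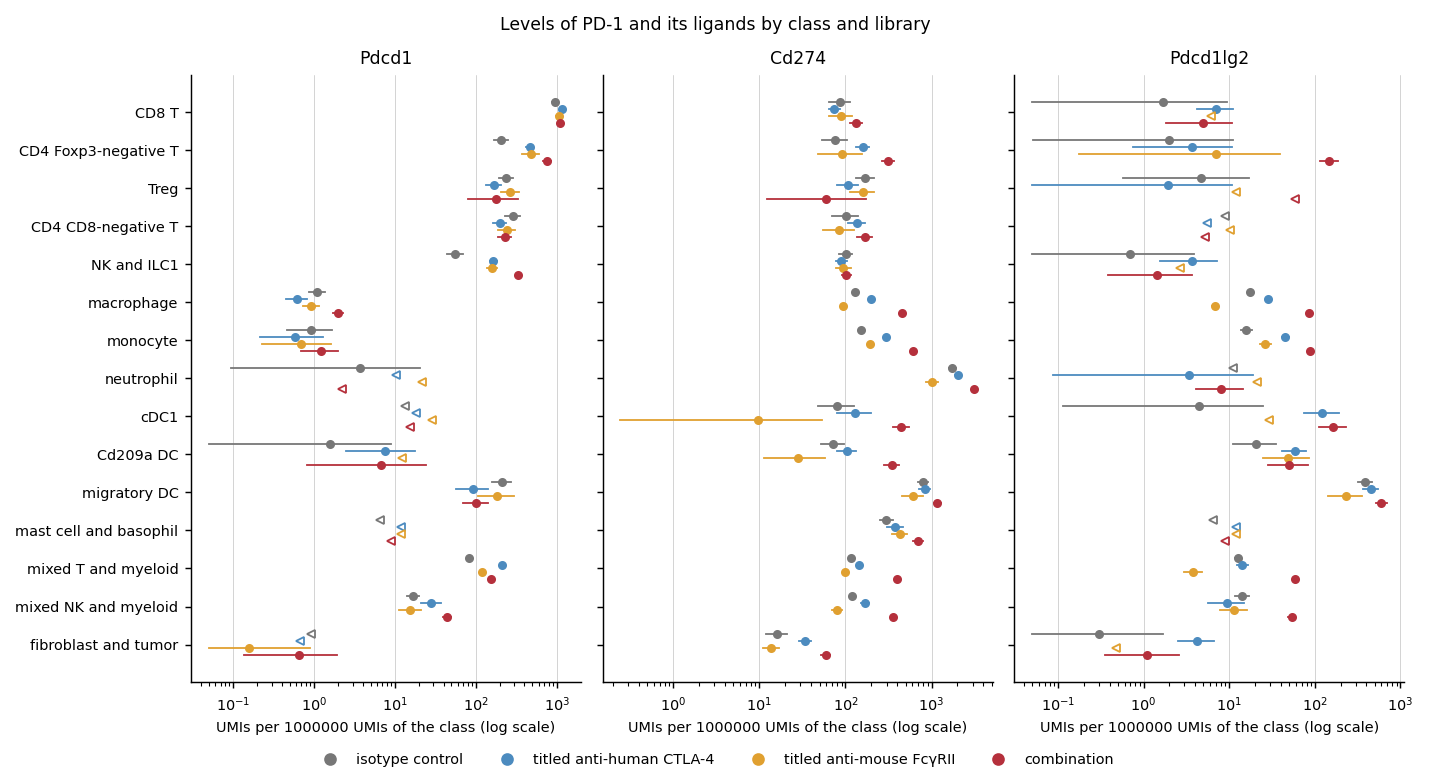
Level of Pdcd1, Cd274 and Pdcd1lg2 (UMIs per 1000000 UMIs of the class, log axis) in 15 classes, 1 point per library; lines are exact 95% Poisson intervals, cut at 0.05, and open triangles stand at the level of 3 UMIs where none was counted. Pdcd1 sits highest in CD8 T cells at 956 to 1159 CPM, Cd274 in neutrophils at 1018.5 to 3090.2 CPM and Pdcd1lg2 in migratory DC at 232 to 599 CPM.

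In CD8 T cells (CD3 genes with Cd8a or Cd8b1 and without Cd4 or Foxp3, and few myeloid markers; 94, 294, 69 and 166 cells in isotype control, the library titled anti-human CTLA-4, the library titled anti-mouse FcγRII and the combination) the level of Pdcd1 was 956 CPM (879 to 1039) in isotype control, 1159 in the library titled anti-human CTLA-4, 1083 in the library titled anti-mouse FcγRII and 1099.8 in the combination. The 3 treated libraries stood close together, and isotype control was the lowest. The combination stood at 1.15 (1.04 to 1.27) times isotype control. Of the 5759 genes that reached 50 CPM in this class in at least 1 of the 4 libraries, 24.5% had a higher ratio. At least 2-fold higher were 1.75% of these genes, and at least 2-fold lower were 1.35%. The share of CD8 T cells with a Pdcd1 UMI, in cells drawn down to 2516 UMIs with shallower cells left out, was 56.2% (45.3% to 67.5%) of 83 cells in isotype control and 66.1% (57.5% to 73.4%) of 146 in the combination, and 64.9% and 70.5% without drawing down. In neutrophils, a class that should lack the receptor, 0.764% of 72 cells in isotype control and 0 of 309 in the combination had one when drawn down to 2031 UMIs, which allows a share of up to 0.971% in the latter when taken as 3 cells, and 1.19% by the Clopper-Pearson interval.

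Within CD8 T cells Pdcd1 was higher in cells that held other inhibitory receptors. In cells with a UMI of Lag3, which encodes another inhibitory receptor, Pdcd1 was at 1294, 1355, 1407 and 1356 CPM in isotype control, the library titled anti-human CTLA-4, the library titled anti-mouse FcγRII and the combination, against 256, 288, 277.5 and 298 CPM in cells without one. The ratio of cells with to cells without Lag3 was thus 4.55 to 5.07 in the 4 libraries, and neither part differed between the combination and isotype control beyond counting error. With Havcr2, which encodes TIM-3, the ratio was smaller, from 1.51 (1.34 to 1.71) in the combination to 2.21 (2.02 to 2.42) in the library titled anti-human CTLA-4. Cells with Tcf7, a transcription factor of stem-like T cells, had less Pdcd1 than cells without it in each library, at ratios of 0.310 to 0.724. With Mki67, a marker of dividing cells, the direction differed, as the ratio was 1.26 (1.07 to 1.49) in isotype control and 0.820 (0.731 to 0.920) in the combination. Cells with a UMI of another gene are also deeper (a median of 6546.5 against 3933.5 UMIs for Havcr2 in isotype control), so such parts differ in depth as well. The split by Lag3 was chosen after values had been seen. In other parts Pdcd1 did differ. Relative to isotype control, the combination stood at 1.69 (1.42 to 2.01) without Tox and 1.37 (1.20 to 1.57) without Mki67. It stood at 1.14 (1.02 to 1.27) without Tcf7 and 0.731 (0.554 to 0.962) with Tcf7. The latter was 0.814 (0.607 to 1.09) without the deepest cell of each library. Cells with Tox, cells with Mki67 and both parts by Havcr2 showed no difference beyond counting error. Cells without Tox were 51 of 94 in isotype control and 137 of 166 in the combination. Whether this makeup had a part in the ratio without Tox was not tested.

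CD4 T cells without Foxp3 (98, 180, 36 and 82 cells, in the same order) showed a wider spread. Pdcd1 was at 207 CPM (169 to 251) in isotype control, 462 (417 to 511) in the library titled anti-human CTLA-4, 477 (370 to 605) in the library titled anti-mouse FcγRII and 764 (687 to 847) in the combination. The libraries of the single antibodies did not differ from each other beyond counting error, both were above isotype control, and the combination was above both. The combination was 3.69-fold (2.96 to 4.63) above isotype control, a ratio that 1.61% of 6208 genes exceeded, whereas 4.45% of genes were at least 2-fold higher in this class. The value depended on how cells were weighed, at 2.81 when each cell counted alike and 6.05 when cells were drawn down to 1 depth. The share of cells with a Pdcd1 UMI was 16.2% (9.09% to 25.5%) of 87 cells in isotype control and 56.2% (44.1% to 67.5%) of 75 in the combination after drawing down to 2199 UMIs (26.5% and 65.9% without). In cells with Tcf7 the level was 42.3 CPM in isotype control, from 13 UMIs in 48 cells, and 608 in the combination, from 86 UMIs in 25 cells. In cells without Tcf7 it was 468 and 831 CPM, so the ratio was 14.4 (7.97 to 28.1) with and 1.78 (1.40 to 2.28) without that gene. In the parts by Havcr2, Tox and Mki67 it ran from 2.91 to 9.33. The highest was in cells with Mki67, from 11 UMIs in 16 cells of isotype control. These parts were not computed without the deepest cell. By Lag3 the parts went opposite ways, at 5.18 (4.01 to 6.77) in cells without it and 0.434 (0.279 to 0.692) in cells with it, of which isotype control had 2, with 28 of its 104 UMIs. In isotype control 1 cell with Tcf7 and no Pdcd1 UMI held 23.7% of all UMIs of the class. Without the deepest cell of each library the ratio was 3.06 (2.45 to 3.84) in the class and 9.99 (5.54 to 19.5) in cells with Tcf7.

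Regulatory T cells (Foxp3; 81, 52, 38 and 6 cells) had 239, 168, 267 and 177 CPM of Pdcd1. In the library titled anti-human CTLA-4 the deepest cell held 45.2% of all UMIs of the class. The ratio of that library to isotype control was 0.701 (0.520 to 0.944) with it, and 1.06 (0.776 to 1.43) without the deepest cell of each library, where the levels were 260.0, 275, 298 and 251 CPM. The direction thus rested on that cell. The 9 UMIs of the combination all lay in 1 of its 6 cells. In T cells with neither CD4 nor CD8 (66, 91, 48 and 86 cells) the levels were 285, 198, 243 and 228 CPM, and the combination stood at 0.800 (0.610 to 1.05) times isotype control, and at 1.13 times when the limit on myeloid markers was doubled. In isotype control the order of the T cell classes was thus CD8 T cells, cells with neither coreceptor, Treg and other CD4 T cells. The intervals of the last 3 overlapped.

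NK cells and ILC1 (Ncr1 or Klrb1c with fewer than 3 CD3 UMIs; 263, 378, 180 and 333 cells) are innate lymphocytes that can kill tumor cells or secrete interferon-γ. Their Pdcd1 level was 55.4 CPM (43.8 to 69.0) in isotype control, 165 (148 to 182) in the library titled anti-human CTLA-4, 159 (136 to 184) in the library titled anti-mouse FcγRII and 337 (316 to 359) in the combination. The 2 single libraries did not differ beyond counting error, isotype control stood below them and the combination above. The combination was 6.09-fold (4.84 to 7.76) above isotype control, 2.05-fold (1.81 to 2.32) above the library titled anti-human CTLA-4 and 2.12-fold (1.81 to 2.50) above the library titled anti-mouse FcγRII. Of 5516 genes in this class 0.78% were at least 2-fold higher, and Pdcd1 was the 9th from the top. The cells with a UMI were few: 13 of 263 (4.94%) in isotype control and 74 of 333 (22.2%) in the combination, or 4.32% (2.15% to 8.02%) and 17.97% (13.9% to 22.7%) when drawn down to 2229 UMIs, against 0.764% and 0 in neutrophils. The gate held the CD3 genes under 3 UMIs per cell. They summed to 7.14 to 14.0 CPM in this class, against 4801.2 to 5943.5 in CD8 T cells. In proportion to them, 1.01 to 2.40 CPM of Pdcd1 would be carried over from T cells. As the gate limited the CD3 genes, it also limited this estimate. A stricter limit on myeloid markers, 0.75% of UMIs in place of 1.5%, left 112 isotype control and 115 combination cells, at 106 and 328 CPM. The ratio was then 3.11. The list of myeloid markers holds Tyrobp and Fcer1g, which NK cells express.

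The NK class was split by Eomes, which marks conventional NK cells, and by Itga1 or Cd200r1 in cells without Eomes, which mark ILC1. In cells with Eomes (183, 269, 132 and 218 cells) Pdcd1 was at 27.7, 41.8, 50.05 and 247.7 CPM in the 4 libraries. The intervals of the first 3 overlapped, and the combination was 8.95-fold (6.12 to 13.6) above isotype control. In cells with Itga1 or Cd200r1 and no Eomes (38, 56, 25 and 60 cells) the levels were 146.5, 611, 584 and 773 CPM. There all 3 treated libraries lay well above isotype control, and the combination was 5.28-fold (3.81 to 7.50) above it. Cells with none of these genes (42, 53, 23 and 55) had 77.5, 188, 99.9 and 114 CPM, from 8 to 37 UMIs. This split was added after the values of the whole class had been seen.

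Migratory dendritic cells (Ccr7 and Fscn1; 35, 21, 10 and 34 cells), which carry antigen to lymph nodes, had Pdcd1 at 210 CPM (160 to 270.5) in isotype control, 92.7 (57.4 to 142) in the library titled anti-human CTLA-4, 185 (106 to 301) in the library titled anti-mouse FcγRII and 101 (69.9 to 141) in the combination. It was thus lower in the combination, at a ratio of 0.480 (0.306 to 0.743), while 6.71% of 5308 genes were at least 2-fold lower in this class and 7.86% at least 2-fold higher. These levels rest on 16 to 60 UMIs, and 1 cell held 13 of the 16 in the library titled anti-mouse FcγRII. Without the highest cell of each library they were 181, 56.4, 38.5 and 60.8 CPM. The CD3 genes, which the gates held under 3 UMIs per cell here too, summed to 0 to 13.2 CPM in these cells. cDC1 had no Pdcd1 UMI in any library, and Cd209a dendritic cells had 1, 5, 0 and 2.

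Macrophages (1.09, 0.614, 0.925 and 1.98 CPM), monocytes (0.590 to 1.22 CPM) and neutrophils (1 UMI in 4 libraries) held almost no Pdcd1. Cells with both CD3 genes and myeloid markers, 1226, 412, 481 and 1138 of them, had 81.6, 211, 119 and 156 CPM. In proportion to their CD3 genes, 84.8, 204, 121 and 152 CPM of Pdcd1 would be there if the T cell part of these profiles were like the gated T cells. Whether they were doublets or touching cells was not tested.

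Cd274 was found in nearly every class, with neutrophils and migratory dendritic cells at the top. It was above isotype control in the macrophages, monocytes, neutrophils, dendritic cells and mast cells of the combination. It was also above in T cells other than Treg and in fibroblasts and tumor cells. In NK cells it did not differ beyond counting error (ratio 1.03, 0.837 to 1.26). The ratios by class are shown for each gene.

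**Figure D2:**
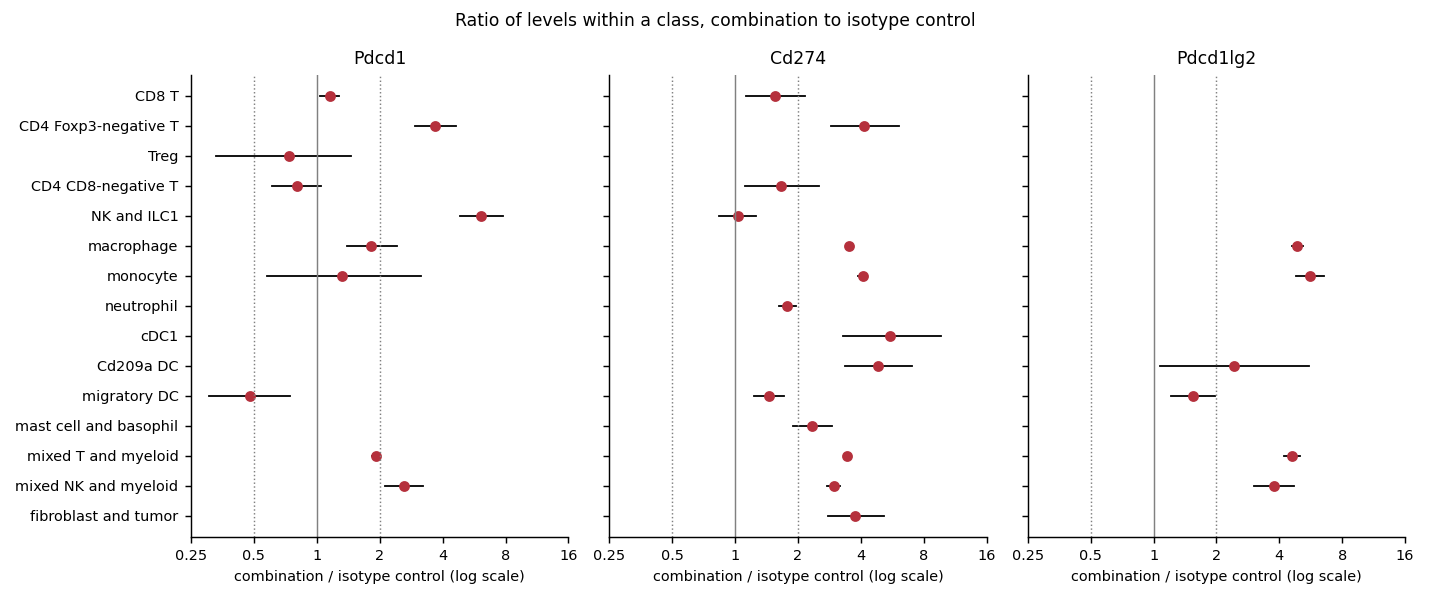
Ratio of the level in the combination to that in isotype control (log axis) by class for Pdcd1, Cd274 and Pdcd1lg2, with exact conditional binomial 95% intervals; dotted lines stand at 0.5 and 2, and classes with under 5 UMIs in either library are left out. The points for both ligands in macrophages and monocytes lie between 3.50 and 5.60, and those for Pdcd1 run from 0.480 in migratory DC to 6.09 in NK cells and ILC1.

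Macrophages (C1q genes; 3745, 3107, 3880 and 3211 cells) were the largest class. Cd274 was at 128.6 CPM (126 to 131) in isotype control, 199.8 (196.5 to 203) in the library titled anti-human CTLA-4, 94.3 (92.3 to 96.4) in the library titled anti-mouse FcγRII and 450 (445 to 454) in the combination. The 4 libraries were thus all apart beyond counting error, with the combination highest. It was 3.50-fold (3.42 to 3.58) above isotype control, 2.25-fold (2.21 to 2.30) above the library titled anti-human CTLA-4 and 4.77-fold (4.66 to 4.89) above the library titled anti-mouse FcγRII. Of 4682 genes in macrophages 2.14% were at least 2-fold higher and 0.726% at least 2-fold lower, and Cd274 ranked 19th. The median macrophage had 1, 2, 1 and 7 UMIs of Cd274 in the 4 libraries, and the 10% of cells with the most held 52.9% of its UMIs in isotype control, against 37.4% in the combination. The share of macrophages with a UMI, drawn down to 8238 UMIs, was 42.3% (40.6% to 44.0%) in isotype control, 53.2% and 36.0% in the libraries titled anti-human CTLA-4 and anti-mouse FcγRII, and 78.3% (76.8% to 79.8%) in the combination (56.2%, 69.5%, 52.9% and 88.5% without drawing down).

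Monocytes (Ccr2, Plac8 and related genes; 1298, 1008, 643 and 1134 cells) gave 151 CPM (144 to 158), 298 (288 to 309), 195 (185 to 206) and 614 (601 to 628). Isotype control was lowest here, and the library titled anti-mouse FcγRII stood above it, which it did not in macrophages. The combination exceeded isotype control 4.07-fold (3.87 to 4.28), where 2.94% of 4735 genes were at least 2-fold higher and 0.697% had a higher ratio than Cd274.

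Nos2, which encodes inducible nitric oxide synthase and marks macrophages activated by interferon-γ, went with both ligands. Macrophages with at least 3 Nos2 UMIs numbered 431, 584, 347 and 1588, and had 324, 454, 271.5 and 633 CPM of Cd274, against 91.0, 119, 64.8 and 204 CPM in macrophages without Nos2. Cells with the enzyme were thus 3.10-fold to 4.19-fold higher in each library. Within each part the combination still stood above isotype control. The ratio was 1.95 (1.88 to 2.03) with at least 3 Nos2 UMIs and 1.80 (1.69 to 1.92) with 1 or 2. Without Nos2 it was 2.24 (2.16 to 2.33). All are below the ratio over all macrophages, and the part with at least 3 Nos2 UMIs held 1588 of 3211 macrophages in the combination and 431 of 3745 in isotype control. In monocytes the ratio was 1.94 (1.76 to 2.14) with at least 3 Nos2 UMIs, 1.67 (1.39 to 2.01) with 1 or 2 and 2.94 (2.73 to 3.17) without.

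Neutrophils (S100a8, S100a9, Csf3r and related genes, with C1q below the limit that marks macrophages; 79, 76, 40 and 346 cells) had the highest Cd274 of the classes, at 1737 CPM (1584 to 1901) in isotype control, 2031 (1871 to 2201) in the library titled anti-human CTLA-4, 1018.5 (858 to 1199.8) in the library titled anti-mouse FcγRII and 3090.2 (2997 to 3185) in the combination. The order was that of macrophages, but the intervals of isotype control and the library titled anti-human CTLA-4 overlapped. The combination exceeded isotype control 1.78-fold (1.62 to 1.96), below the 2-fold that 8.57% of 3873 genes exceeded, and it was 2.89 when cells had to have at least 1000 detected genes and at most 5% mitochondrial UMIs. Neutrophils with Retnlg, a gene of blood neutrophils, had 1031 and 1998 CPM in isotype control and the combination, and those without it 2445 and 3419. Cells with Retnlg were 42 of 79 in isotype control and 65 of 346 in the combination. The neutrophil markers of the gate summed to 57115 CPM in isotype control and 36144 in the combination, and whether this makeup had a part in the ratio was not tested.

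**Figure D3:**
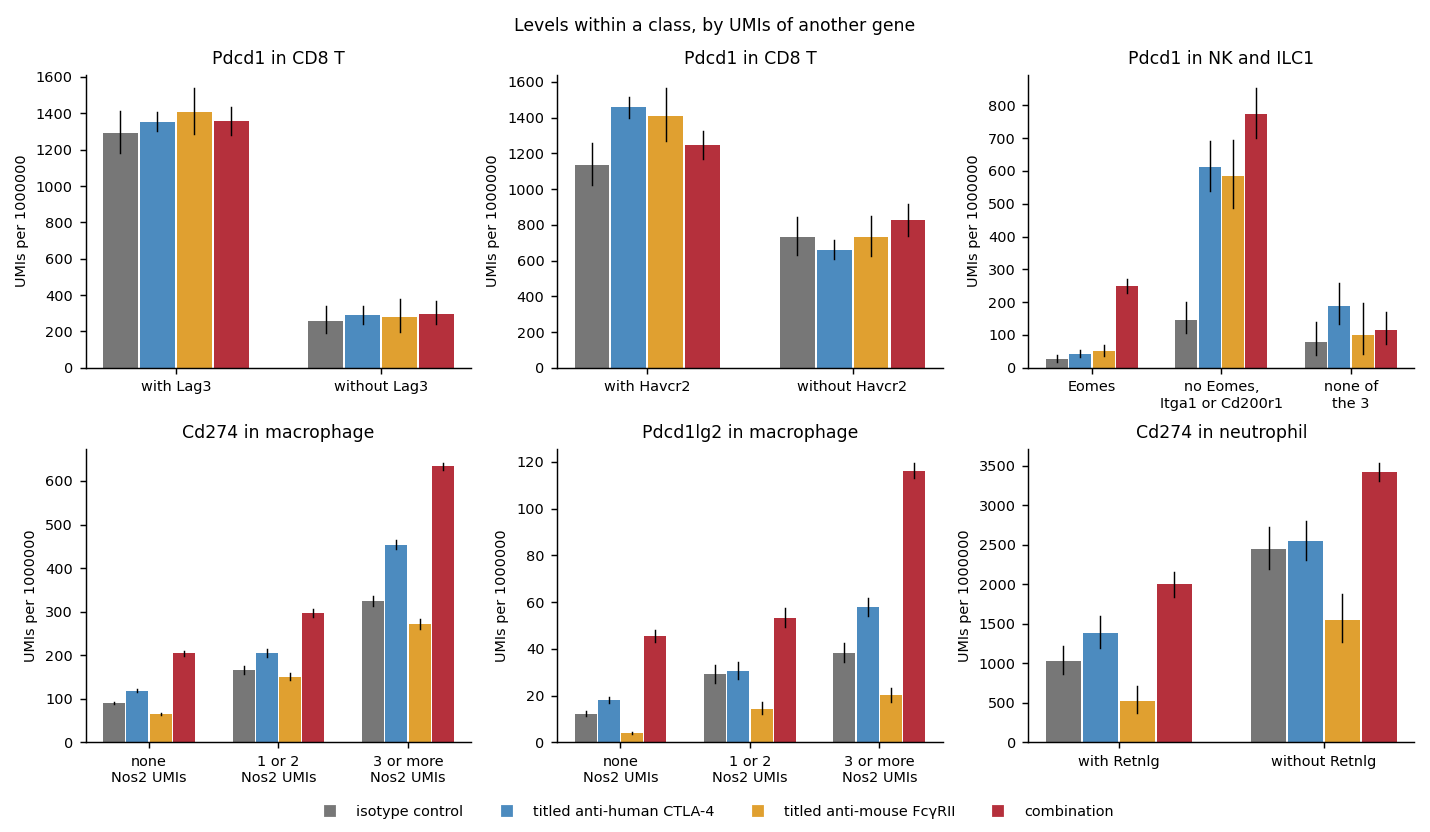
Levels (UMIs per 1000000, linear axis from 0) of Pdcd1 in CD8 T cells and NK cells and of the ligands in macrophages and neutrophils, split by UMIs of another gene; bars are libraries and lines are exact 95% Poisson intervals. Pdcd1 is at 1294 to 1407 CPM in CD8 T cells with Lag3 in the 4 libraries, whereas in NK cells with Eomes the combination (247.7 CPM) stands above the others, and among macrophages both ligands are highest in cells with at least 3 Nos2 UMIs.

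Dendritic cells were fewer. Migratory dendritic cells had 805 CPM (705 to 916.5) of Cd274 in isotype control, 838.5 (724 to 967) and 602 (450 to 790) in the libraries titled anti-human CTLA-4 and anti-mouse FcγRII, and 1172 (1059 to 1294) in the combination. The first 3 overlapped, and the combination was 1.46-fold (1.23 to 1.72) above isotype control. Cd209a dendritic cells (73, 58, 26 and 31 cells) had 71.6, 104, 28.2 and 344 CPM, with the combination 4.80-fold (3.35 to 6.98) above isotype control. cDC1 (Xcr1 and Clec9a; 25, 17, 10 and 15 cells), which present antigen to CD8 T cells, had 80.4, 128.8, 9.62 and 442 CPM, from 18, 21, 1 and 87 UMIs, and a ratio of 5.50 (3.28 to 9.70). The ratio was 10.3 without the highest cell of each library, 8.35 with 1 more marker UMI asked of each cell and 15.3 when cells were drawn down to 1 depth. Of the cDC1, 8.00% in isotype control and 60.0% in the combination had a Cd274 UMI. Plasmacytoid dendritic cells (26, 15, 4 and 10 cells) had 29.0, 160, 0 and 490 CPM, with 17 of the 21 UMIs of the second library in 1 cell and the 0 coming from 4 cells. Mast cells and basophils (55, 25, 23 and 32 cells) had 299, 377, 429 and 699 CPM, a ratio of 2.34 (1.88 to 2.91). In each of these classes the combination was thus the highest library. The summed C1q genes were at 0 to 245 CPM in them, against 14248 to 16328 in macrophages. The gates of these classes held C1q below the limit that marks macrophages, so a difference in C1q was set by the gates.

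T cells and NK cells also held Cd274, at a lower level than neutrophils and migratory dendritic cells. In isotype control macrophages, at 128.6 CPM, stood within the range of these lymphoid classes. In NK cells and ILC1 it was 100.2, 89.5, 94.6 and 103 CPM, without a difference beyond counting error. In CD8 T cells it was 86.6, 74.5, 89.7 and 134 CPM, and the combination was 1.54-fold (1.12 to 2.16) above isotype control, or 3.21-fold where the limit on myeloid markers was doubled. In CD4 T cells without Foxp3 it was 75.7, 160, 91.2 and 313 CPM, and 203 CPM in the combination without 1 cell that held 60 of the 148 UMIs. The ratio to isotype control was 4.14 (2.88 to 6.07), 2.11 when each cell counted alike and 1.98 when cells were drawn down to 1 depth. In T cells with neither CD4 nor CD8 it was 101, 135, 84.3 and 167 CPM, with the combination at 1.65 times isotype control. In Treg it was 171, 106, 160 and 59.0 CPM, the last from 3 UMIs, and 128.7, 137, 178 and 83.8 CPM without the deepest cell of each library. In proportion to the C1q genes in these classes, 0.458 to 10.5 CPM of Cd274 would be carried over from macrophages. The gates of these classes limited myeloid markers, the C1q genes among them, and the estimate covers no other source than macrophages. Among fibroblasts and tumor cells (72, 62, 78 and 54 cells), which the CD45 sort should have removed, the levels were 15.9, 33.7, 13.7 and 59.3 CPM.

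Pdcd1lg2 was at its highest in migratory dendritic cells, and was also found in macrophages and monocytes. In macrophages, monocytes and migratory dendritic cells both ligands stood above isotype control in the combination. Migratory dendritic cells had 389 CPM (320 to 468) in isotype control, 450 (367 to 546.5) and 232 (141.5 to 358) in the libraries titled anti-human CTLA-4 and anti-mouse FcγRII, and 599 (520 to 688) in the combination. This was 1.54-fold (1.22 to 1.96) above isotype control. The share of these cells with a UMI, drawn down to 3865 UMIs, was 63.5% (42.3% to 79.3%) of 29 cells in isotype control and 74.8% (55.6% to 87.1%) of 34 in the combination, and the intervals overlap.

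In macrophages the levels were 17.4 CPM (16.4 to 18.4), 28.1 (26.9 to 29.4), 6.78 (6.25 to 7.35) and 84.8 (82.8 to 86.8) in isotype control, the libraries titled anti-human CTLA-4 and anti-mouse FcγRII, and the combination. The order of the libraries was that of Cd274, with a wider range. The combination was 4.88-fold (4.59 to 5.19) above isotype control, the 8th highest ratio of the genes compared in macrophages, and 12.5-fold (11.5 to 13.6) above the library titled anti-mouse FcγRII. The share of macrophages with a UMI was 7.07% (6.19% to 7.99%), 9.80%, 3.26% and 28.0% (26.4% to 29.7%) after drawing down to 8238 UMIs, and 10.4%, 15.2%, 5.41% and 39.1% before. In NK cells, which should lack it, the share was 0.147% to 0.318% in the libraries that had any UMI, drawn down to 2229. That depth is lower than in macrophages, so the shares are not on the same scale. Macrophages with a Pdcd1lg2 UMI had 1.47-fold to 2.84-fold more Cd274 than those without in the 4 libraries. In macrophages with at least 3 Nos2 UMIs Pdcd1lg2 was at 38.5, 57.8, 20.2 and 116 CPM, and in those without Nos2 at 12.3, 18.3, 4.14 and 45.3 CPM.

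In monocytes Pdcd1lg2 was at 15.9 CPM (13.7 to 18.3), 45.3 (41.3 to 49.6), 26.5 (22.9 to 30.5) and 89.0 (83.9 to 94.2). Isotype control was the lowest, as for Cd274 in this class, and the ratio of the combination to it was 5.60 (4.80 to 6.57). Cd209a dendritic cells had 20.7, 57.99, 48.3 and 50.1 CPM, with 11 of the 12 UMIs of the library titled anti-mouse FcγRII in 1 cell. In cDC1 there were 1, 20, 0 and 32 UMIs. Of the 20, 17 came from 1 cell, whereas those of the combination came from 53.3% of its 15 cells, at 162 CPM (111 to 229). Neutrophils held 0, 1, 0 and 11 UMIs, and mast cells and basophils none. In CD4 T cells without Foxp3 the combination reached 148 CPM, but 55 of its 70 UMIs lay in 1 cell, without which the level was 34.6 CPM. Markers of migratory dendritic cells summed to 485 CPM in that class of the combination and 193 to 253 in the other libraries, and their part in this value was not tested.

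Macrophages held 46.7% of the Cd274 UMIs in isotype control and 48.1% in the combination, and 51.4% and 56.7% of those of Pdcd1lg2. They also held 46.4% and 47.8% of the UMIs of all genes in these libraries, so their share of Cd274 was that of the class itself. Neutrophils, at the highest level, held 2.38% and 5.38% of the Cd274 UMIs, and all dendritic cells together 5.16% and 2.02% of those of Pdcd1lg2. Of the Pdcd1 UMIs, profiles of T or NK cells mixed with myeloid markers held 78.5% in isotype control, 41.7% and 67.5% in the libraries titled anti-human CTLA-4 and anti-mouse FcγRII, and 73.5% in the combination. The plot of shares of UMIs shows these sources.

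**Figure D4:**
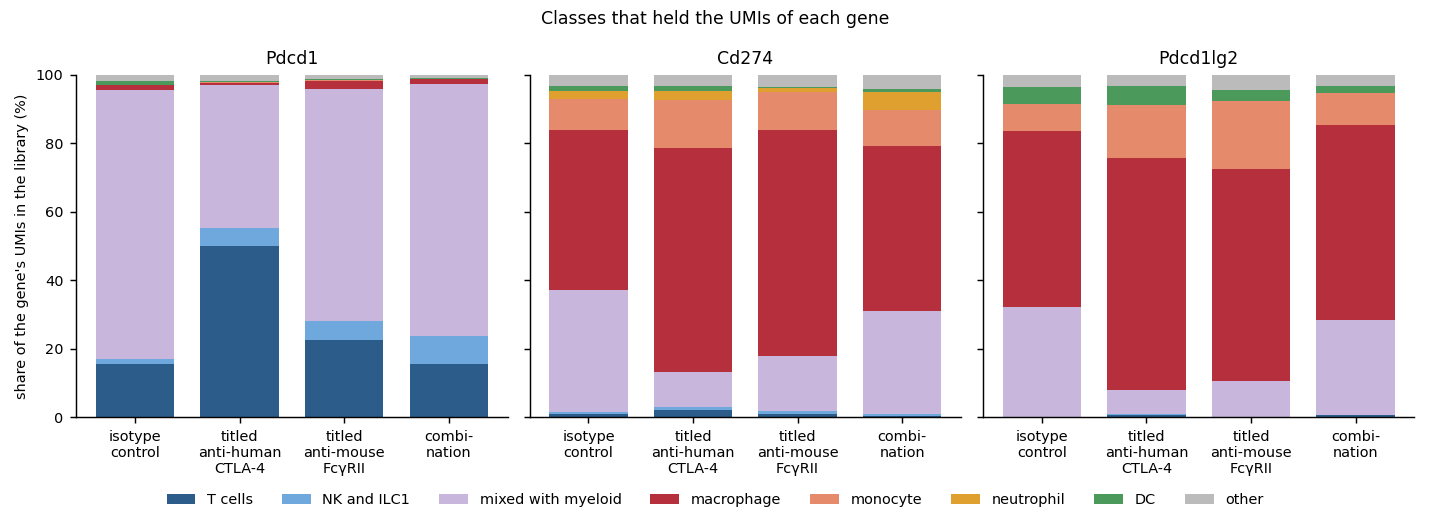
Share of the UMIs of each gene (percent of the library) by class, for the 4 libraries. Macrophages hold 46.7% to 65.9% of Cd274 and 51.4% to 67.6% of Pdcd1lg2, and T cells with the mixed profiles hold most of Pdcd1.

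Class makeup was taken as the share of a library's UMIs in each class, and not as the share of its cells. Over all cells kept, Cd274 was at 128 CPM in isotype control and 447 in the combination. With the class makeup of isotype control and the levels of the combination it would be 432 CPM, and with the makeup of the combination and the levels of isotype control 138. For Pdcd1lg2 these values were 15.7 and 71.5 CPM, and 71.8 and 15.8. For Pdcd1 they were 36.0 and 67.1 CPM, and 66.9 and 36.9. With the classes used here, holding the class makeup at isotype control thus changed the values of the combination little. For Pdcd1 it changed those of the single-antibody libraries more. The library titled anti-human CTLA-4 went from 61.5 to 81.5 CPM, and that titled anti-mouse FcγRII from 25.4 to 50.3 CPM. The makeup within a class was not separated by this. Profiles mixed of T and myeloid cells held 76.1% of the Pdcd1 UMIs in isotype control and 70.8% in the combination. Macrophages with at least 3 Nos2 UMIs were 431 of 3745 in isotype control and 1588 of 3211 in the combination. What part such shifts had in the levels was not tested.

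The genes around the receptor were described in CD8 T cells. Of the 6 genes of PD-1 signalling none was 2-fold apart between the combination and isotype control, and their median ratio was 0.903 against 0.978 over all genes compared in that class. Ptpn6 and Ptpn11, the phosphatases, had the lowest ratios, 0.637 (0.563 to 0.721) and 0.652 (0.489 to 0.871). Ptpn6 was at 775, 634, 834 and 493 CPM in the 4 libraries. Cd28, the costimulatory receptor on which PD-1 acts, and Zap70, a kinase of the T cell receptor, had the highest, 1.07 and 0.956.

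Of the 12 transcription factors known to act on Pdcd1 or to go with it, 11 passed 50 CPM. At least 2-fold higher in the combination were 3 and at least 2-fold lower 1, against 1.75% and 1.35% of all genes compared in CD8 T cells, and the median ratio was 1.02. Nr4a1, an early gene of T cell receptor signalling, was at 138, 311, 122 and 513 CPM, a ratio of 3.72 (2.95 to 4.76). Prdm1, which encodes Blimp-1, was at 40.8, 92.6, 67.3 and 104 CPM, a ratio of 2.55 (1.64 to 4.12). The remaining member past 2-fold was Nr4a3. Tox, a factor of exhausted T cells, went the other way, at 195, 147, 151 and 44.9 CPM, with the combination at 0.230 (0.163 to 0.320) of isotype control. Eomes had 0.765 (0.521 to 1.13). The genes moved apart while Pdcd1 itself was at 1.15.

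The genes around the ligands were described in macrophages. Of the 9 partners of the ligands and genes of their turnover, 7 passed 50 CPM and none was 2-fold apart, with a median ratio of 0.956 against 0.933 over all genes. Rgmb, a further receptor of PD-L2, had the highest ratio, 1.15 (1.11 to 1.20), followed by Adam17, a protease, at 1.01, and the lowest were Adam10, another protease, at 0.806 (0.789 to 0.824) and Cops5, a subunit of the signalosome, at 0.909. Of the 14 genes of ligand induction 13 passed, 1 was at least 2-fold higher and none lower, against 2.14% and 0.726% of all genes compared in macrophages, and the median ratio was 1.03. Socs1, which interferon-γ induces and which restrains its signal, was at 83.2, 117, 57.0 and 293 CPM, a ratio of 3.52 (3.42 to 3.62). Irf1, a transcription factor of the interferon response, was at 334, 405, 253 and 659 CPM, a ratio of 1.97 (1.94 to 2.00), and the order of the libraries for both genes was that of the ligands. Ifngr1, a chain of the receptor, was at 364, 294, 309 and 230.2 CPM, a ratio of 0.632 (0.621 to 0.644), and Myc was at 150, 112, 144 and 97.6 CPM, a ratio of 0.652.

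**Figure D5:**
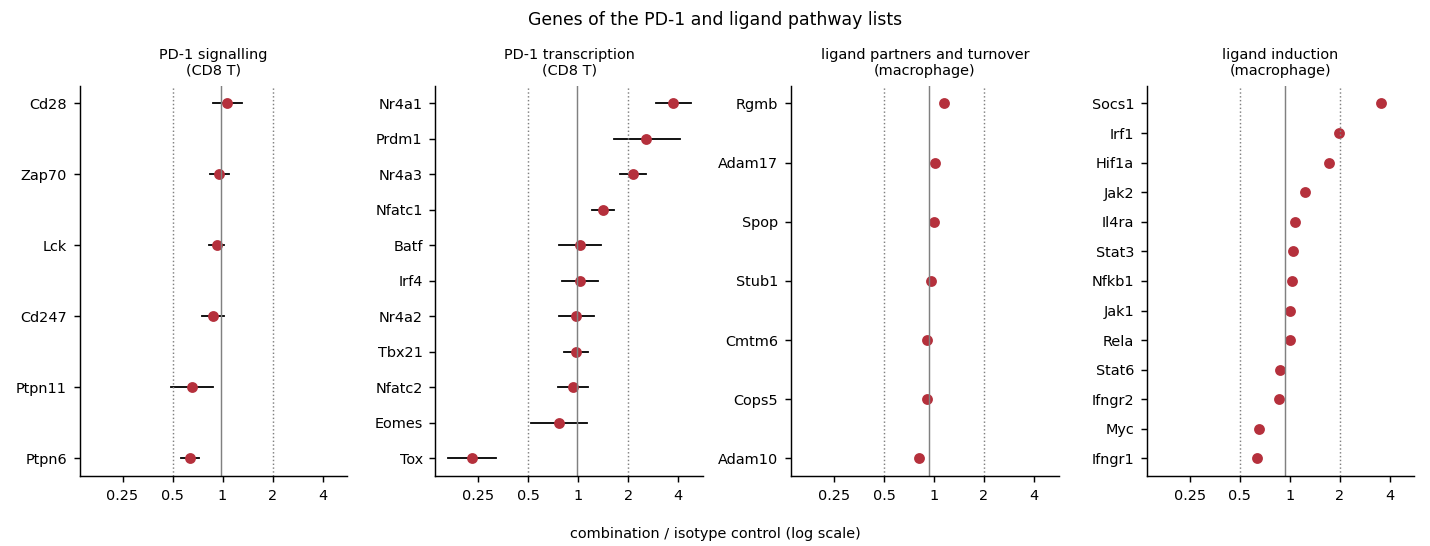
Ratio of the combination to isotype control (log axis) for the genes of 4 lists that passed 50 CPM, in CD8 T cells (left pair) and macrophages (right pair); lines are exact 95% intervals, the grey line is the median of all genes compared in the class and dotted lines stand at 0.5 and 2. Nr4a1 (3.72) and Socs1 (3.52) lie farthest to the right and Tox (0.230) farthest to the left.

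Across 54 points of class and library, in 15 classes, the genes most like each member were found among 9008 genes by the Pearson correlation of log2(CPM + 1). The points of 1 library share its depth and the points of 1 class share its cell type, so the values are a description. For Pdcd1 they included Camk4, Icos, Cd247 and Lck, with r from 0.93 to 0.94. Icos is a costimulatory receptor and Cd247 and Lck belong to the T cell receptor's signalling. For Cd274 they were Ccrl2, Ilrun, Mxd1, Osm and Ier5 (0.81 to 0.90), all of which peaked in neutrophils. For Pdcd1lg2 they were Htr7, Cd40, Batf3, Kynu and Nostrin (0.83 to 0.87), all of which peaked in migratory dendritic cells. Between the ligands r was 0.349, and between the receptor and Cd274 -0.187.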

How the data were processed

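The authors deposited raw UMI counts per gene and called cell, made with Cell Ranger from Chromium Flex libraries (version 7.0.0 in the submitters' processing notes, 7.2.0 in the matrix header, build mm10). The counts were not normalized, and each group has 1 library. Cells were kept from 500 detected genes upward and up to 10% mitochondrial UMIs, and the 5% of cells with the highest Scrublet score per library were left out as doublets (scanpy 1.11.5), which kept 5779 to 7741 cells per library. Cells were gated by marker genes. Lymphoid classes held under 1.5% of UMIs from myeloid markers, and macrophages at least 10 C1q UMIs per 10000. Gates were set after marker distributions had been viewed. The members and lists were chosen with earlier results of these data known. Shares were the mean of 100 draws to percentile 10 of depth. Genes with at least 50 CPM in the class in at least 1 of the 4 libraries were compared. Of each list the genes with the 2 highest and 2 lowest ratios, and for each member the 5 most correlated genes, were named, over points of at least 50000 UMIs and 30 cells. The splits by Lag3, by Eomes, Itga1 and Cd200r1, by Retnlg and by Pdcd1lg2, the C1q limit on the neutrophil, dendritic and mast cell classes, and the alternatives without that limit, without the highest cell or without the deepest cell were chosen after seeing the data. The scripts were tested on simulated data. Some items of the lists are not reported here.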

Additional observations from a re-analysis of the deposited data

Results flagged for a closer look

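Some classes moved in opposite directions between the same libraries. Of the classes that differed beyond counting error, only those with the highest and the lowest ratio are given. For Pdcd1 in the combination 6 classes were above isotype control and 1 was below. These differences between classes were not tested, since each group has 1 library. The Pdcd1 level in the combination was 6.09 times that of isotype control in NK cells and ILC1 and 0.480 times in migratory dendritic cells. In the library titled anti-human CTLA-4 the same ratios were 2.97 and 0.441. For Cd274 in that library, fibroblasts and tumor cells were at 2.12 times the isotype control level and Treg at 0.622 times. The latter rested on 1 cell with 45.2% of the UMIs of that class, and without the deepest cell of each library it was 1.07 (0.683 to 1.65). In the library titled anti-mouse FcγRII, Cd274 was at 1.43 times the isotype control level in mast cells and basophils and at 0.394 times in Cd209a dendritic cells, from 7 UMIs. For Pdcd1lg2 in that library monocytes were at 1.67 times and cells mixed of T and myeloid profiles at 0.298 times.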

How the results depend on the processing

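The alternatives were run on the ratios of whole classes of the combination to isotype control, except those resting on few UMIs. Except for leaving out the deepest cell in parts by Tcf7 or Lag3, they were not run on the parts of classes. Among the ratios tried, none whose interval left out 1 fell on the other side of 1 under these alternatives. Pdcd1 in CD8 T cells was at 1.28 with the doubled myeloid limit and 1.30 with cells drawn down to 1 depth, and in CD4 T cells without Foxp3 at 2.81 as a mean over cells and 6.05 drawn down. In NK cells and ILC1 it was at 3.11 with the stricter limit. With median-of-ratios size factors, which shifted the macrophage ratios by 0.12 on the log2 scale, Cd274 was at 3.81 in macrophages and 4.33 in monocytes, and Pdcd1lg2 at 5.32 in macrophages. Cd274 in macrophages was at 3.34 as a mean over cells and 3.60 drawn down, and Pdcd1lg2 there at 5.29 drawn down. Cd274 in neutrophils was at 2.89 with the stricter cell filter and 1.99 without the C1q limit. The ratio of macrophage shares for Cd274 was 2.70 with a minimum of 2 UMIs and 1.57 without drawing down, and for Pdcd1lg2 5.15 with that minimum. With a minimum of 20 CPM, 250 genes in CD8 T cells were at least 2-fold higher and 242 lower, 510 were higher in CD4 T cells without Foxp3, 113 in NK cells and ILC1, 562 in neutrophils and 715 in migratory dendritic cells, where 703 were lower. Genes with at least 50 CPM are among those with at least 20 CPM, so these counts could not fall. How many genes were compared at the lower minimum is not given. The cause of the shifts in the ratios and shares was not tested. Of the values given above and their like (ratios, shares and counts of genes), 83 stayed within counting error or 1.5 times the count and 23 moved. Of 231 values for 21 further ratios, 211 stayed within counting error and 20 moved, and 3 fell on the other side of 1. These were Pdcd1 in T cells with neither coreceptor (0.800 as reported, 1.13 with the doubled myeloid limit) and in monocytes (1.32 as reported, 0.802 with that limit and 0.898 drawn down). In Treg the ratios of the library titled anti-human CTLA-4 to isotype control turned from 0.701 to 1.06 for Pdcd1 and from 0.622 to 1.07 for Cd274 without the deepest cell of each library. Classes of few cells, such as cDC1 and Treg in the combination, limit the depth. No paired analysis was possible because each group has 1 library.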
